A study of Rattus norvegicus with 8 samples.

Results

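The glucagon gene Gcg and 3 genes known from pancreatic alpha cells, Ttr, Irx2 and Sstr2, were followed in islet cells from rats at postnatal day 10. These 4 genes were given by name, and all 4 were found among the 10692 gene rows of the deposited table. Islets of Sprague Dawley pups were taken apart into single cells, cultured, and given locked nucleic acid (LNA) oligonucleotides by lipid transfection; an LNA binds its complementary RNA tightly. In the inhibitor group (n = 4 libraries) the cells received 3 LNAs against tiRNA-5, fragments from the 5-prime side of tRNA-HisGTG, tRNA-GluCTC and tRNA-GluTTC, at 20 pmol each and 60 pmol in all. In the control group (n = 4 libraries) they received 60 pmol of a scrambled LNA. Strain, age, culture and transfection reagent were the same in both groups, and the comparison shows how mRNA levels differ when these fragments are targeted. Whether libraries of 1 group stem from separate litters or cultures is not in the labels. The p-values therefore cover only the spread from library to library, which may be technical in part. Its technical share was not tested. Among Y-linked genes, Eif2s3y and Kdm5d differed widely within the inhibitor group, as given below, while Ddx3y varied less. The cultures held every islet cell type, and fewer alpha cells and less of an mRNA per alpha cell cannot be told apart in such bulk RNA.

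Alpha cells secrete glucagon, the hormone that raises blood glucose by acting on the liver. Gcg encodes proglucagon, which the convertase PC2 (Pcsk2) cuts into glucagon in alpha cells and PC1/3 (Pcsk1) cuts into glucagon-like peptides in gut cells. The transcription factors Pax6 and Foxa2 help to keep the gene active, and Irx2 is a homeobox factor found in alpha rather than beta cells. Sstr2 encodes the somatostatin receptor through which neighbouring delta cells restrain glucagon release in rodents. Ttr encodes transthyretin, a carrier of thyroid hormone and, bound to retinol-binding protein, of vitamin A, which mouse and human alpha cells also make.

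The promoters of Gcg and Sstr2 are shown because these genes stand far apart in level and only one of them has a TATA box in this window. Both sequences are RefSeq's for the GRCr8 build, with 250 bases before the annotated start and 50 after it, 5′ to 3′ on the strand of the gene. The Gcg window lies on the minus strand at chr3:67531484-67531783, and the Sstr2 window on the plus strand at chr10:99163103-99163402. Capitals mark matches, on either strand, to TATAAA, the core of a TATA box, to TNTTTAC, which forkhead factors such as Foxa2 bind, or to TGACGTCA, the cyclic AMP response element.
Gcg: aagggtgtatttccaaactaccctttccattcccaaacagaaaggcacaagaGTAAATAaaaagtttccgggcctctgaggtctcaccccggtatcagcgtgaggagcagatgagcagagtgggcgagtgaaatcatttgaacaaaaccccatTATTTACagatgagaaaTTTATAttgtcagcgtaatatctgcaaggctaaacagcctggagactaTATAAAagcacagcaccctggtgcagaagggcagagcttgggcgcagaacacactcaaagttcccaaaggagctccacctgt
Sstr2: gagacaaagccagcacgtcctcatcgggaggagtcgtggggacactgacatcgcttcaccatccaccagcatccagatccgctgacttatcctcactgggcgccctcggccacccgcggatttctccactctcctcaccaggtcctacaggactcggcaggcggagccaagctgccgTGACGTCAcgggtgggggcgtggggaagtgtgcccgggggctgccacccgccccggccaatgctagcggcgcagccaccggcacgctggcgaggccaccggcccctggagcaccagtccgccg
TATAAA stood at -32 to -27 from the Gcg start in the direction of the gene, and once more at -80 to -75 on the opposite strand. TNTTTAC matched at -97 to -91 in the direction of the gene and at -198 to -192 on the opposite strand. The Sstr2 window held the palindrome TGACGTCA at -73 to -66 and neither of the other motifs. Of 33469 rat promoter windows of this length, 14.2% held TATAAA, 13.3% held TNTTTAC and 1.83% held TGACGTCA on either strand. A match is a stretch of letters only, and binding was not measured.

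Values are the deposited RPKM, reads scaled by gene length and library size. Whole reads recovered from the RPKM steps came to between 16035607 and 19049788 per library in the listed genes. Some libraries stood apart from the rest of their groups. In inhibitor 4 the Y-linked genes Eif2s3y and Kdm5d were at 0.257 and 0.120 RPKM, against 6.86 RPKM or more and 2.77 RPKM or more in the other libraries, while Ddx3y, the third measured Y-linked gene, was at 1.42 RPKM there and at 0.909 to 1.39 RPKM in the others. Inhibitor 1 was highest for Eif2s3y and Kdm5d, at 18.8 and 8.73 RPKM, and control 1 came next, at 14.2 and 7.04 RPKM. Control 1 had the lowest summed level of 9 measured mesenchymal markers, 2259 RPKM, where the other control libraries had 4185 to 5063 RPKM and the inhibitor libraries 2640 to 4166 RPKM. Results for the members, the ratios, Sst and Slc7a2 are also given without inhibitor 4 and control 1, called the doubted libraries below. That choice was made after seeing the data.

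No alpha-cell gene passed the limma test over the whole table, while the authors' deposited table gives 1, Slc7a2, an adjusted p under 0.05. Differences were tested with limma on log2(RPKM + 1) over 10688 genes, and at an adjusted p under 0.05 it called 0 genes (0.00%), the smallest adjusted p being 0.541. At an unadjusted p under 0.05 it called 960 genes (8.98%), 590 higher (5.52%) and 370 lower (3.46%) in inhibitor cells. That split was 449 higher and 540 lower when libraries were scaled by the median of ratios, 420 higher and 511 lower without inhibitor 2, 598 higher and 674 lower without control 1, and 652 higher and 1048 lower without both doubted libraries. Of the single libraries, leaving out inhibitor 1 gave 421 such genes and leaving out control 2 gave 493. With limma-voom on the recovered reads, 0 genes were called after adjustment and 993 (9.29%) before it. The authors' deposited table holds 6 genes (0.0561%) at an adjusted p under 0.05. Inhibitor and control values were fully separated for 5.31% of genes. Of the 4 members, which all passed the filter on low values, 1 (Sstr2) had an unadjusted p under 0.05, and the values of 0 did not overlap between the groups. That call depended on the setting. Sstr2 was past it under 6 of 8 other settings (not with upper-quartile scaling or the replicate block) and in 3 of 8 fits with 1 library left out, and not without both doubted libraries. Ttr was past it under 3 of 7 other settings (a pseudocount of 5, the median of ratios and the block) and in 3 of 8 fits with 1 library left out. A log2 fold change is the inhibitor mean less the control mean of log2(RPKM + 1), a scale that makes changes of low genes look smaller.

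Gcg was among the most abundant mRNAs in both groups and overlapped widely between them. It stood at 7075, 7587, 7308 and 9762 RPKM in inhibitor 1 to 4, against 5932, 8346, 8370 and 7747 RPKM in control 1 to 4. Inhibitor 4 was the highest and control 1 the lowest of all 8 libraries, and the other 6 lay between 7075 and 8370 RPKM. The means were 7933 ± 1237 RPKM in inhibitor and 7599 ± 1148 RPKM in control cells (SD, n = 4 each), a log2 fold change of 0.06 ± 0.20 (SE; 95% confidence interval -0.39 to 0.52; limma adjusted p = 0.904). Its sign rested on this pair of libraries, being -0.04 without inhibitor 4, -0.05 without control 1 and -0.15 without both. Leaving out the highest inhibitor or the lowest control library can only lower this value. Only Ins1, Ins2 and Iapp, the genes of insulin and amylin from beta cells, had a higher mean RPKM, and Gcg ranked 4 in 7 libraries and 3 in inhibitor 4. It had between 145345 and 264134 reads per library, so that counting error was between 0.195% and 0.262%, while the libraries of a group varied by 15.6% (inhibitor) and 15.1% (control).

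The other members were rare mRNAs in these cultures. The order of mean RPKM was Gcg, Sstr2, Ttr and Irx2, with Gcg 1248 times the level of Sstr2, 2553 times that of Ttr and 2717 times that of Irx2. Sstr2 ranked 7043, Ttr 9048 and Irx2 9183 among the 10692 rows. Sstr2 was above Ttr in all 8 libraries, whereas Ttr and Irx2 did not differ in level beyond their spread over the libraries.

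**Figure D1:**
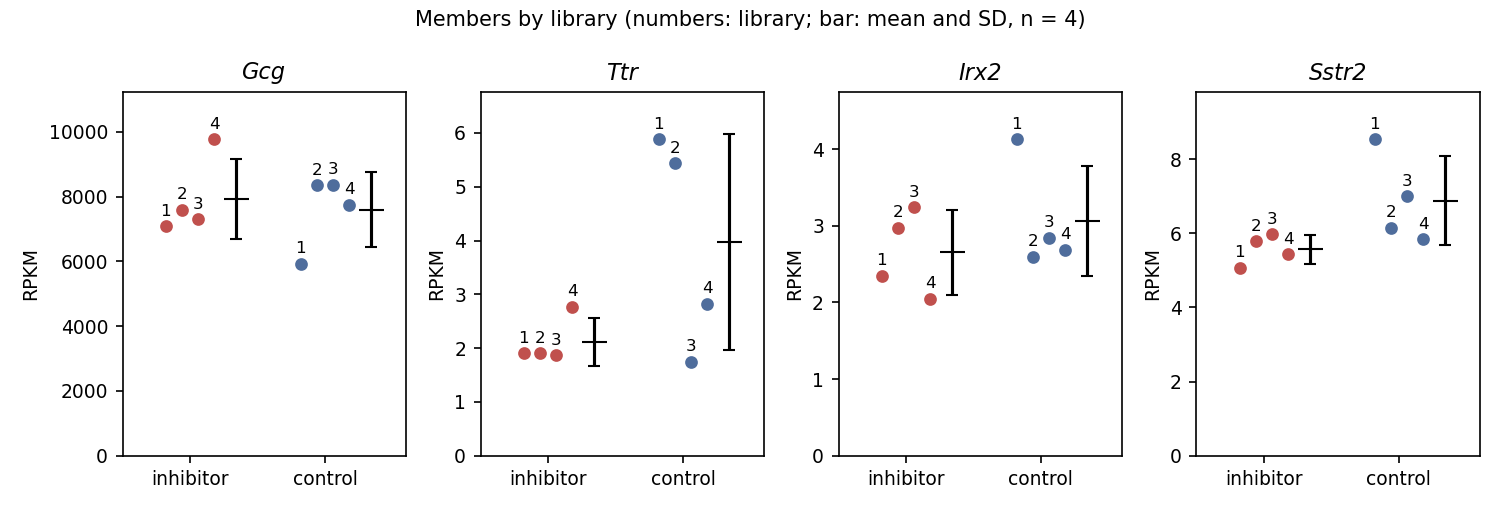
RPKM of the 4 genes (y axis, from 0) in each library (points, numbered as in the labels) of the inhibitor group (left) and control group (right); bars give mean and SD, n = 4. Inhibitor 4 is highest for Gcg at 9762 RPKM, and control 1 is highest for Ttr, Irx2 and Sstr2.

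Ratios within a library do not depend on how libraries are scaled. None of the 3 that were tested, by exact permutation with adjustment over the 3, had an adjusted p under 0.05. The RPKM of Gcg divided by that of Ins1 plus Ins2 was 0.0367, 0.0312, 0.0369 and 0.0653 in inhibitor 1 to 4 and 0.0268, 0.0433, 0.0350 and 0.0402 in control 1 to 4. Inhibitor 4 was far above the rest, and the difference of log2 ratios was 0.19 (exact permutation test, two-sided: p = 0.6, 0.6 after adjustment), or -0.04 without inhibitor 4 and -0.18 without both doubted libraries. Relative to Sst, the somatostatin gene of delta cells, Gcg stood at 13.1, 12.7, 12.3 and 24.6 in inhibitor 1 to 4 and at 5.71, 13.2, 10.2 and 13.3 in control 1 to 4. The log2 difference was 0.58 (exact permutation test, two-sided: p = 0.286, 0.429 after adjustment), and inhibitor 1 to 3 lay within the range of the control libraries. It was 0.34 without inhibitor 4, 0.30 without control 1 and 0.065 without both. The ratio of Gcg to Ttr was 3723, 3991, 3918 and 3520 in inhibitor 1 to 4 and 1009, 1535, 4788 and 2741 in control 1 to 4. Its log2 difference was 0.83 (exact permutation p = 0.171, two-sided, adjusted p = 0.429), with an SD of 0.081 among inhibitor and 0.98 among control libraries. Without both doubted libraries the difference was 0.51. The smallest p that 4 against 4 libraries can give is 0.0286. After adjustment over the 3, a ratio that alone reached it would still not be under 0.05.

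**Figure D2:**
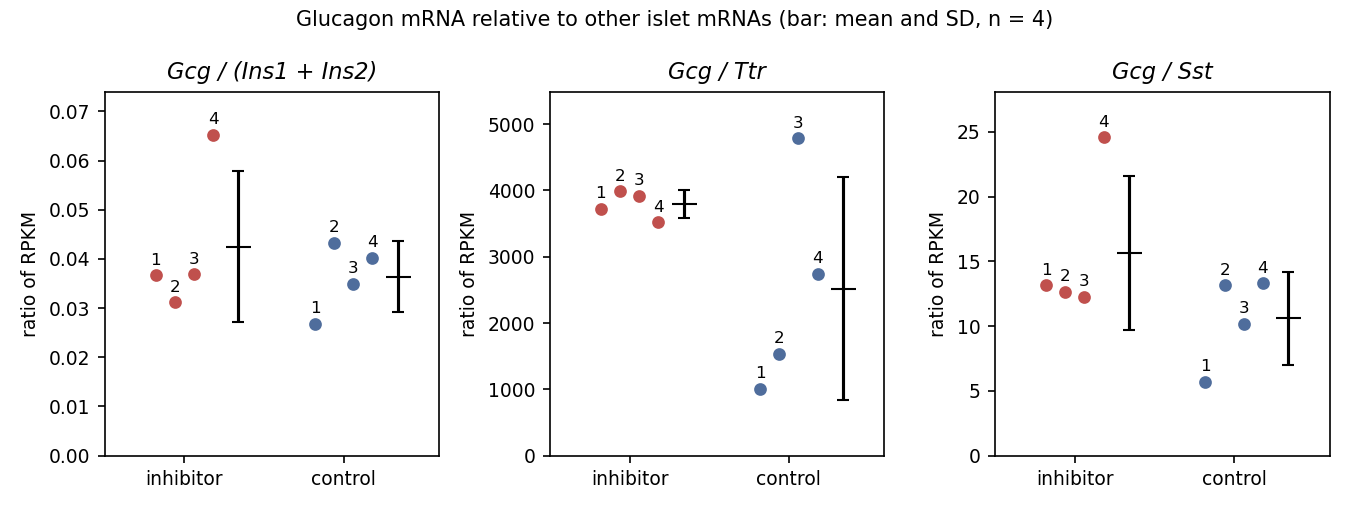
RPKM of Gcg divided by that of Ins1 plus Ins2 (left), Ttr (middle) and Sst (right), on linear axes from 0, per library (numbered points) with inhibitor left of control; bars give mean and SD, n = 4. Gcg to Ttr spans 3520 to 3991 in inhibitor libraries and 1009 to 4788 in control libraries.

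Ttr was lower on average in inhibitor cells, through a wide spread in the control group. It stood at 1.90, 1.90, 1.87 and 2.77 RPKM in inhibitor 1 to 4 and at 5.88, 5.44, 1.75 and 2.83 RPKM in control 1 to 4. Control 1 and 2 were high, while control 3 was the lowest of all libraries and control 4 close to inhibitor 4, so the groups overlapped. The means were 2.11 ± 0.442 RPKM in inhibitor and 3.97 ± 2.00 RPKM in control cells (SD, n = 4 each), a log2 fold change of -0.59 ± 0.27 (SE; 95% confidence interval -1.19 to 0.01; limma adjusted p = 0.550). In the authors' deposited table its log2 fold change was -0.94 with an adjusted p of 0.428, and those of the other members were 0.04 and 0.953 for Gcg, -0.23 and 0.812 for Irx2, and -0.33 and 0.538 for Sstr2. These RPKM rested on few reads. Inhibitor 1 to 4 had 35, 33, 30 and 50 reads of Ttr, and control 1 to 4 had 96, 100, 29 and 44. The exact Poisson 95% interval ran from 77.8 to 117 reads for control 1 and from 19.4 to 41.6 reads for control 3, covering counting error only. Counting alone gives a spread of 16.4% at the mean number of reads in the inhibitor group and 12.2% in the control group, where the libraries varied by 21.0% (inhibitor) and 50.4% (control). The log2 fold change was -0.84 without control 3 and -0.40 without control 1 (limma adjusted p = 0.646 and 0.505). Without both doubted libraries it was -0.50 (limma adjusted p = 0.378).

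Ttr is also made in quantity by hepatocytes, and markers of that cell type were counted beside it. Of 6 hepatocyte markers 3 were measured, Serpina1, Tf and Fgb, and Alb, the albumin gene, was listed but has no values among the gene rows. Their summed level was 86.6 to 141 RPKM in inhibitor and 105 to 181 RPKM in control libraries, with the highest value in control 1. Serpina1, which encodes an antiprotease of plasma, averaged 72.7 RPKM in inhibitor and 102 RPKM in control cells (log2 fold change -0.44 ± 0.20, SE; limma adjusted p = 0.550). Tf, transferrin, averaged 19.0 RPKM in inhibitor and 20.8 RPKM in control cells (-0.12 ± 0.086, SE; limma adjusted p = 0.638). Fgb, a chain of fibrinogen, differed the other way, at 13.0 RPKM in inhibitor and 6.24 RPKM in control cells (0.61 ± 0.58, SE; limma adjusted p = 0.700), and was highest in inhibitor 4. The part of such cells in the Ttr values was not tested.

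The partners of transthyretin lay lower in inhibitor cells without passing the test. Of 14 genes of thyroid hormone and retinol handling 7 were tested, all 7 with a negative and 0 with a positive log2 fold change and a median of -0.11, where all genes had a median of 0.02 and 54.3% were positive. Thra, a thyroid hormone receptor, stood at 7.59, 7.47, 8.27 and 7.18 RPKM in inhibitor 1 to 4 and at 8.88, 9.08, 8.88 and 8.83 RPKM in control 1 to 4. Its groups did not overlap, as held in this direction for 1.61% of all genes tested (log2 fold change -0.20 ± 0.063, SE; limma adjusted p = 0.541). Dio1, a deiodinase that activates thyroid hormone, averaged 12.8 ± 1.96 RPKM in inhibitor and 18.3 ± 6.49 RPKM in control cells (SD, n = 4; limma adjusted p = 0.554), with its highest value, 27.3 RPKM, in control 1. Rbp4, which carries retinol together with transthyretin, had a log2 fold change of -0.06 ± 0.080 (SE; limma adjusted p = 0.787).

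The difference in Irx2 was smaller than the spread inside either group. It stood at 2.35, 2.98, 3.24 and 2.05 RPKM in inhibitor 1 to 4 and at 4.13, 2.59, 2.85 and 2.69 RPKM in control 1 to 4. Control 1 was alone above 4 RPKM, and the other control libraries lay inside the inhibitor range. The means were 2.65 ± 0.551 RPKM in inhibitor and 3.06 ± 0.717 RPKM in control cells (SD, n = 4 each), a log2 fold change of -0.15 ± 0.14 (SE; 95% confidence interval -0.47 to 0.17; limma adjusted p = 0.701), on 75 to 106 reads in inhibitor and 85 to 137 reads in control libraries. Without both doubted libraries it was 0.05. Of the 5 other Iroquois genes Irx1 alone was tested. It was at 0.909, 0.982, 1.32 and 0.879 RPKM in inhibitor 1 to 4 and at 1.04, 1.66, 1.06 and 1.08 RPKM in control 1 to 4 (log2 fold change -0.12 ± 0.12, SE; limma adjusted p = 0.701).

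Sstr2 was lower on average in inhibitor cells and did not pass the test after adjustment. It stood at 5.07, 5.78, 5.97 and 5.44 RPKM in inhibitor 1 to 4 and at 8.53, 6.15, 7.00 and 5.84 RPKM in control 1 to 4. Control 1 to 3 were above every inhibitor library and control 4 was within their range. The means were 5.56 ± 0.398 RPKM in inhibitor and 6.88 ± 1.20 RPKM in control cells (SD, n = 4 each), a log2 fold change of -0.25 ± 0.11 (SE; 95% confidence interval -0.49 to -0.01; limma adjusted p = 0.543). With 278 to 299 reads in inhibitor and 271 to 415 reads in control libraries, counting gives a spread of 5.88% (inhibitor) and 5.41% (control), where the libraries varied by 7.15% (inhibitor) and 17.5% (control). The log2 fold change was -0.16 without control 1 and -0.15 (limma adjusted p = 0.466) once inhibitor 4 was left out as well.

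Somatostatin, the ligand of this receptor, differed in the same direction. Sst stood at 538, 599, 596 and 397 RPKM in inhibitor 1 to 4 and at 1039, 634, 821 and 583 RPKM in control 1 to 4, with control 1 highest and inhibitor 4 lowest. Its log2 fold change was -0.51 ± 0.20 (SE; limma adjusted p = 0.541), or -0.22 with the pair of doubted libraries left out. Of 5 delta-cell markers 3 were measured, and their summed level, 413 to 616 RPKM in inhibitor and 599 to 1061 RPKM in control libraries, is nearly all Sst. The others, Hhex and Rbp4, had log2 fold changes of -0.14 ± 0.11 and -0.06 ± 0.080 (SE; limma adjusted p = 0.657 and 0.787). The part of delta cells in the Sstr2 values was not tested. Of 15 genes of somatostatin signalling 10 were tested, 3 positive and 7 negative, with a median of -0.04, where 54.3% of all genes were positive. Only Sst had an unadjusted limma p under 0.05, on the lower side, where all genes gave 5.52% higher and 3.46% lower. Sstr5, a receptor known from rodent beta cells, was at 2.85 ± 0.965 RPKM in inhibitor and 3.91 ± 1.05 RPKM in control cells, and Sstr3 had a log2 fold change of -0.08 ± 0.10 (SD with n = 4; SE; limma adjusted p = 0.587 and 0.766). The G protein subunits that carry the signal were closer between the groups, with log2 fold changes of 0.07 ± 0.071 for Gnao1 and 0.05 ± 0.065 for Gnai3 (SE; limma adjusted p = 0.730 and 0.774).

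Other alpha-cell genes went both ways. Of 12 listed, 11 were tested, 7 with a positive and 4 with a negative log2 fold change, and the median was 0.11. At an unadjusted p under 0.05, 2 were higher and 0 lower, where all genes gave 5.52% and 3.46%. The groups did not overlap for 1 higher and 0 lower genes, where all genes gave 3.70% and 1.61%. Slc7a2, a cationic amino acid transporter, was that gene, at 112, 121, 103 and 99.1 RPKM in inhibitor 1 to 4 against 76.7, 76.2, 71.3 and 88.5 RPKM in control 1 to 4 (log2 fold change 0.47 ± 0.086, SE; limma adjusted p = 0.541). The authors' deposited table gives it a log2 fold change of 0.46 and an adjusted p of 0.00629, from a test of theirs that is unknown here. Without both doubted libraries the log2 fold change of Slc7a2 was 0.51 (limma adjusted p = 0.192).

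The transcription factors of the list, Irx1, Pou3f4 and Etv1, were at most at 5.69 RPKM in any library (Etv1 in inhibitor 4). Pou3f4 had a log2 fold change of -0.10 ± 0.091 and Etv1 of 0.06 ± 0.15 (SE; limma adjusted p = 0.701 and 0.885). Smarca1, a chromatin remodeller, was at 2.30 ± 0.274 RPKM in inhibitor and 2.05 ± 0.204 RPKM in control cells (SD, n = 4; limma adjusted p = 0.669).

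The other genes of the list covered a wide range of levels. Gc, the vitamin D-binding protein, was at 354, 412, 257 and 427 RPKM in inhibitor 1 to 4 and at 248, 306, 266 and 320 RPKM in control 1 to 4. Inhibitor 3 lay inside the control range, and the log2 fold change was 0.32 ± 0.16 (SE; limma adjusted p = 0.562). Slc38a5, a glutamine transporter, was at 603 ± 93.1 RPKM in inhibitor and 713 ± 156 RPKM in control cells (SD, n = 4; limma adjusted p = 0.624). Cryba2, a crystallin, stood at 9.46, 14.6, 9.37 and 6.93 RPKM in inhibitor 1 to 4 and at 4.71, 8.25, 8.16 and 5.99 RPKM in control 1 to 4 (log2 fold change 0.50 ± 0.21, SE; limma adjusted p = 0.545). Inhibitor 4 lay inside the control range. Rgs4, which shortens G protein signals, had a log2 fold change of 0.52 ± 0.34 (SE; limma adjusted p = 0.607) that rested on 167 RPKM in inhibitor 4, and it was 0.15 without that library. Fap, a membrane peptidase, was at 2.96 ± 0.806 RPKM in inhibitor and 2.38 ± 0.957 RPKM in control cells (SD, n = 4, limma adjusted p = 0.681). Mesenchymal cells make it too, and it was lowest, like the summed level of their markers, in control 1 at 1.05 RPKM.

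**Figure D3:**
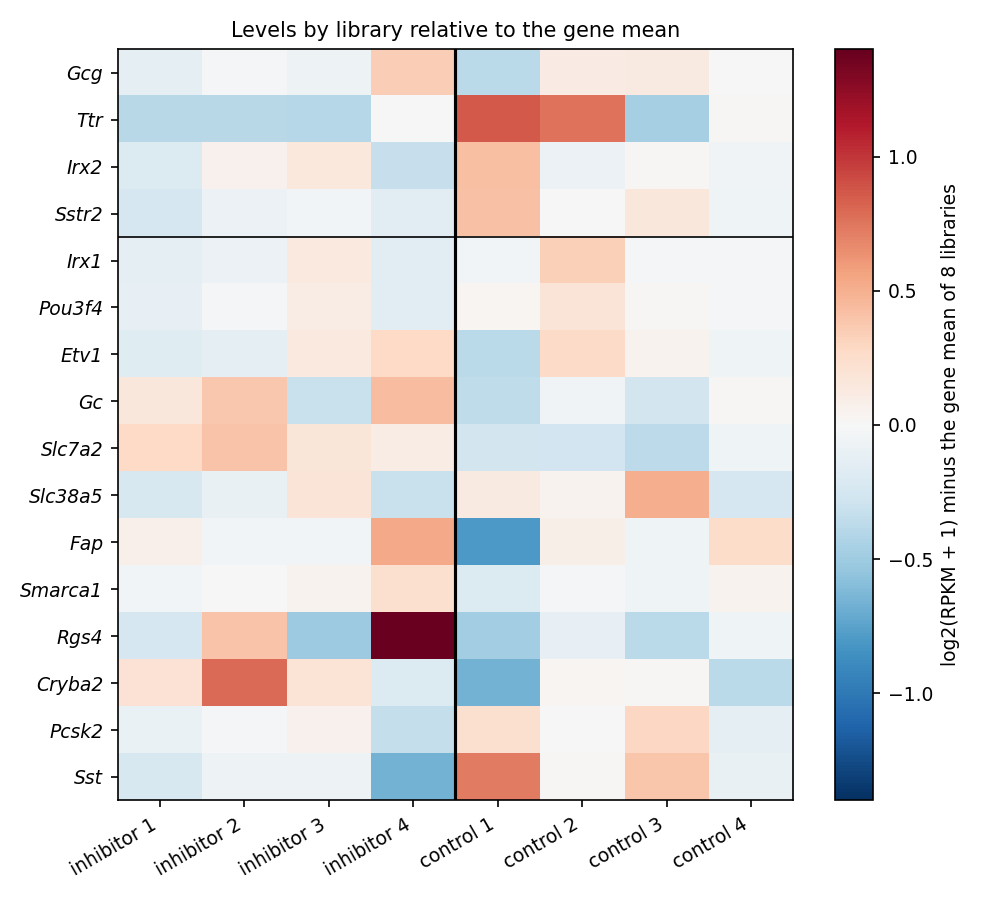
log2(RPKM + 1) of the 4 genes (above the line), the other alpha-cell genes and Sst in each of the 8 libraries, less the mean of the gene over the libraries (colour scale); the inhibitor libraries are left of the vertical line. Slc7a2 is above its mean in all 4 inhibitor libraries, and in control 1 Gcg is below and Ttr, Irx2, Sstr2 and Sst are above their means.

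Enzymes that process proglucagon showed no difference past the test. Pcsk2, which releases glucagon, was at 432 ± 47.9 RPKM in inhibitor and 497 ± 66.3 RPKM in control cells, and Pcsk1, which releases glucagon-like peptides, at 299 ± 10.7 RPKM in inhibitor and 283 ± 23.8 RPKM in control cells (SD, n = 4; limma adjusted p = 0.587 and 0.687). Beta cells use both enzymes as well and outnumber alpha cells in rat islets. Of 9 listed processing enzymes and granule partners 8 were tested, 2 positive and 6 negative, with a median of -0.03. Chga, which encodes the granule protein chromogranin A, was at 366 ± 53.5 RPKM in inhibitor and 440 ± 52.8 RPKM in control cells, and Scg2, secretogranin II, at 2068 ± 221 RPKM in inhibitor and 2010 ± 171 RPKM in control cells (SD, n = 4; limma adjusted p = 0.554 and 0.905).

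Factors that act on the glucagon gene were also split. Of 14 listed, 11 were tested, 5 positive and 6 negative, with a median of -0.05. At an unadjusted limma p under 0.05, 1 (Neurod1) was higher and 0 lower, where all genes gave 5.52% and 3.46%. Neurod1, of all endocrine cells, had a log2 fold change of 0.32 ± 0.13 (SE; limma adjusted p = 0.541). Pax6, which binds the Gcg promoter, was at 98.3 ± 10.5 RPKM in inhibitor and 89.0 ± 7.81 RPKM in control cells (SD, n = 4; limma adjusted p = 0.605). Foxa2, a forkhead factor, was at 24.8 RPKM in inhibitor and 25.7 RPKM in control cells on average, with a log2 fold change of -0.05 ± 0.080 (SE; limma adjusted p = 0.812). Nkx2-2 averaged 31.6 ± 6.35 RPKM in inhibitor and 36.6 ± 3.46 RPKM in control cells (SD, n = 4; limma adjusted p = 0.587).

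Receptors of glucagon and the incretins were near one another in level and between the groups. The glucagon receptor gene Gcgr was at 46.5 ± 8.66 RPKM in inhibitor and 44.5 ± 7.95 RPKM in control cells, Glp1r, for glucagon-like peptide-1, at 51.7 ± 3.57 RPKM in inhibitor and 48.7 ± 3.68 RPKM in control cells, and Gipr, for the gut hormone GIP, at 45.0 ± 6.47 RPKM in inhibitor and 39.9 ± 8.19 RPKM in control cells (SD, n = 4). Their limma adjusted p were 0.861, 0.681 and 0.682, and all 3 tested log2 fold changes were positive, between 0.06 and 0.18. Of 22 genes of glucagon secretion 18 were tested, 8 positive and 10 negative, with a median of -0.02. Beside Slc7a2, the gene nearest to the threshold among the higher ones was Scn9a, a sodium channel, at 2.16 ± 0.222 RPKM in inhibitor and 1.77 ± 0.311 RPKM in control cells (SD, n = 4; limma adjusted p = 0.575). Ephb2, a receptor of contacts between cells, was at 1.33 ± 0.156 RPKM in inhibitor and 1.63 ± 0.166 RPKM in control cells, and Cacna1c, a calcium channel, at 8.92 ± 0.996 RPKM in inhibitor and 10.7 ± 1.84 RPKM in control cells (SD, n = 4; limma adjusted p = 0.564 and 0.568).

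**Figure D4:**
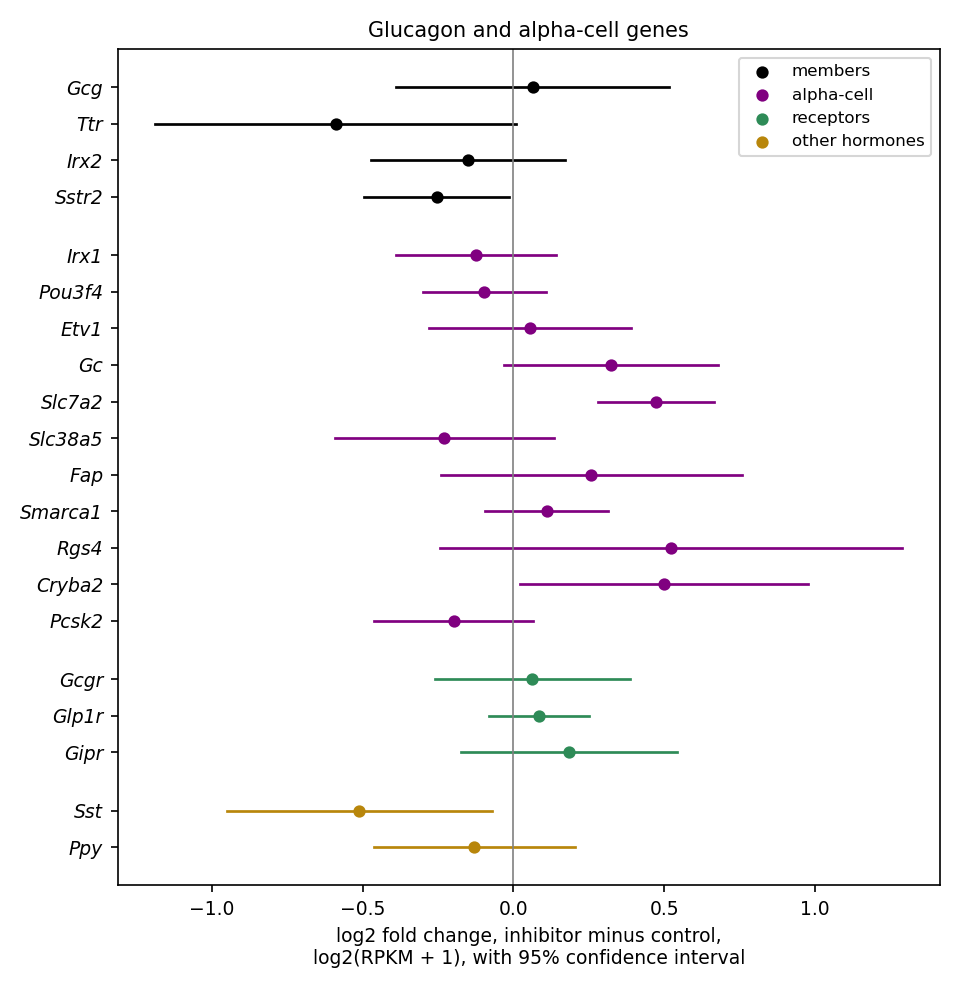
Inhibitor minus control difference of mean log2(RPKM + 1), the log2 fold change (x axis), with 95% confidence intervals from limma, for the 4 genes, the other alpha-cell genes, receptors and other hormones (rows). The intervals of Sstr2, Slc7a2, Cryba2 and Sst leave out 0, and none of the limma adjusted p is under 0.05.

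The 4 genes did not share 1 pattern over the libraries. In control 1 Gcg was at its lowest, 5932 RPKM, while Ttr, Irx2 and Sstr2 were at their highest, 5.88, 4.13 and 8.53 RPKM. In inhibitor 4 Gcg was at its highest and Irx2 at its lowest, 2.05 RPKM. Control 2, with 5.44 RPKM of Ttr, was unremarkable for Irx2 and Sstr2. Among genes of at least 10 RPKM, those most like Gcg by Pearson correlation of log2(RPKM + 1) over the 8 libraries were Snapc3 (r = 0.978), Gnaq (0.960) and Cnp (0.947). For Sstr2 they were Ndrg4 (0.961), Spint2 (0.957) and Zcchc12 (0.955), and for Ttr Nob1 (0.966), Gak (0.963) and Ambra1 (0.962). For Irx2 they were Ip6k1 (0.940), Lrba (0.935) and a row whose name is a number in the table. None of these is an alpha-cell gene of the lists. The limit of 10 RPKM kept Ttr, Irx2, Sstr2 and the rarer alpha-cell genes out of that search. The correlations describe the libraries that all genes share and were picked as the highest of all such genes. Between the members, r was 0.824 for Irx2 and Sstr2, 0.549 for Ttr and Sstr2 and 0.336 for Ttr and Irx2. For Gcg it was -0.813 with Irx2, -0.522 with Sstr2 and -0.264 with Ttr.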

How the data were processed

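mRNA of 8 libraries was measured, 4 of inhibitor and 4 of control cells, grouped by their titles. Per the file headers, the authors deposited RPKM, with a column for each library. HISAT2 2.1.0, HTSeq, RSEM 1.3.0, STAR 2.5.3a and the build rn6 appear in the submitters' processing notes. Which of them made the RPKM, with what annotation and strand setting, is not given in the sources used here. Beside the RPKM, the deposited table holds the authors' log2 fold change, fold ratio, p-value and adjusted p-value, whose test is likewise unknown.

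Whole reads were recovered from the RPKM steps for 10692 of 10692 rows (100%; tolerance 0.0001), checked on simulated data, and served for depth, counting error and limma-voom. Genes at 1 RPKM or more in 4 or more libraries were kept (4 rows left out), and limma 3.58.1 (R 4.3.3) fitted their log2(RPKM + 1) on the group alone, with an intensity trend, two-sided, with Benjamini-Hochberg adjustment over all genes at 0.05. Ratios were tested by exact permutation in scipy 1.17.1.

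The members and lists were chosen with earlier results of these data known. The text names the members, the other islet hormones, alpha-cell and receptor genes, up to 2 genes per direction and list with the smallest p, and the 3 genes most like each member. Some alpha-cell genes are not reported here. Genes outside this rule, chosen after their values were seen, are Serpina1, Tf, Fgb, Hhex, Rbp4, Sstr3, Foxa2 and the Y-linked genes. Alternatives were other pseudocounts, filters, scalings and tools, a replicate block and libraries left out.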

Additional observations from a re-analysis of the deposited data

Results flagged for a closer look

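In groups of 4 libraries, a value that stands far from the other three of its group was looked for in 41 results, or 82 groups, and chance alone gives about 1 in 20. It was found in 6. The gap to the nearest library, as a share of the group's range, was 0.961 for Ttr in inhibitor 4 (highest), 0.835 for Irx2 in control 1 (highest), 0.948 for Irx1 in control 2 (highest), 0.885 for Gipr in inhibitor 4 (lowest), 0.879 for Ephb2 in inhibitor 3 (highest) and 0.901 for the log2 ratio of Gcg to Sst in inhibitor 4 (highest). The limit for 4 libraries is 0.829. Inhibitor 4 accounts for 3 of the 6.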

How the results depend on the processing

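limma called 0 genes after adjustment under every alternative that was run, and no member or other named gene crossed the threshold. No ratio crossed it either, but with libraries left out or with the replicate block none could. The smallest exact p is 0.0571 for 3 against 4 libraries and 0.125 for 4 pairs. Without control 3, Gcg to Ttr was at that limit (exact permutation p = 0.0571). The log2 fold changes of Ttr, Sstr2 and Slc7a2 kept their sign throughout. Leaving out 1 library at a time gave log2 fold changes of -0.05 to 0.11 for Gcg, -0.84 to -0.40 for Ttr, -0.23 to -0.03 for Irx2 and -0.32 to -0.16 for Sstr2. The log2 difference of the ratio of Gcg to insulin was then between -0.04 and 0.32, that of Gcg to Ttr between 0.48 and 1.22 and that of Gcg to Sst between 0.30 and 0.71. The ranges of genes whose sign turned were -0.21 to 0.06 for Ins2, -0.06 to 0.15 for Etv1, -0.050 to 0.18 for Gcgr and -0.0035 to 0.11 for Scg2, and those of Fap and Gnai3 were 0.035 to 0.39 and 0.012 to 0.079.

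Without both control 1 and inhibitor 4, an alternative chosen after seeing the data, the sign turned for Gcg (-0.15), the ratio of Gcg to insulin (-0.18), Irx2 (0.050), Ins2 (0.066), Etv1 (-0.14), Fap (-0.098) and Gnai3 (-0.024), Gcgr was at 0.23 and Scg2 at 0.15, and the log2 difference of the ratio of Gcg to Sst was 0.065; the cause was not tested. The number of genes at an unadjusted p under 0.05 was 1700 there, 421 without inhibitor 1, 493 without control 2 and 960 with all libraries.

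Same-numbered libraries deviated together with correlations of 0.14, -0.27, 0.32 and 0.45 for numbers 1 to 4, so the numbers, not all over 0.1, were not taken as pairs; inhibitor 1, 3 and 4 correlated best with the control of their own number and inhibitor 2 with control 1. Ttr and Irx2 have no value under the filter of 5 RPKM in all libraries. With the replicate block, limma called 0 genes, and the log2 fold changes were 0.06 for Gcg and -0.59 for Ttr, with adjusted p of 0.915 and 0.476. The block took Sstr2 over an unadjusted p of 0.05 and Ttr under it. Ttr, with 29 to 100 reads per library, is limited by depth as well as by the spread of libraries.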
